A study of Mus musculus with 6 samples.

Results

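The genes described here are p53, its inhibitors and its target genes, together with the BCL2 family and the initiator caspases, in fetal liver (FL) of mice with and without Pogz. They were chosen by name and function and not by their values: 27 genes of the p53 pathway and 11 of the BCL2 family and caspases, 38 in all. The arrays measured 36 of them, among 18193 genes in total: 25 of the 27 p53 pathway genes and 11 of the 11 BCL2 family and caspase genes. Trp53, which encodes p53 itself, and Bax, a pore-forming BCL2 protein, are named by 0 probe sets of the probe annotation used, alone or with other genes, so neither was analysed here.

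RNA was taken from FL of 3 Pogz+/+ and 3 Pogz-/- embryos at E14.5, on a C57BL/6 background backcrossed for more than 10 generations, and each was hybridised to 1 Affymetrix array. Pogz-/- embryos came from intercrosses of heterozygous mice that carried a germline deletion, made with a β-actin-cre transgene, of the exons for the CENPB and DDE domains, some of the zinc fingers and part of the 3′ UTR. FL at this age is a mixed organ in which erythroid cells are abundant beside progenitors, macrophages, granulocytes and hepatoblasts, and the whole suspension was used. In such bulk RNA, fewer cells of a type and less RNA per cell cannot be told apart.

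p53 is a transcription factor that is held at a low level by MDM2 and MDM4, and that, when released after DNA damage or other stress, raises genes for cell cycle arrest, DNA repair and apoptosis. Mitochondrial apoptosis is decided among BCL2 proteins: antiapoptotic members (BCL2, BCL-XL, MCL1, BCL-W) restrain the effectors BAX and BAK, and BH3-only proteins such as BIM, BID, PUMA and NOXA oppose the antiapoptotic members or engage the effectors. In the erythroid lineage, BCL-XL is known for the survival of late erythroblasts, and MCL1 for the survival of early hematopoietic cells.

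The array of Pogz+/+ replicate 1 was unlike the rest before any gene was tested. Its actin 3′/5′ ratio, which is high where RNA is degraded or cDNA short, was 52.3, where Pogz+/+ replicates 2 and 3 had 5.50 and 6.63 and Pogz-/- had 3.72 to 4.09, and its Gapdh ratio was 15.3, against 4.87 to 9.29 in the remaining arrays. Its log2 signals correlated with those of the other arrays at r of 0.794 to 0.810 across probe sets, whereas pairs without it reached 0.906. Results are therefore given over all 6 arrays and again in a 5-array fit that leaves this array out. The brightest probe set of Pogz, the targeted gene, had log2 signals of 9.17, 9.03 and 8.95 in Pogz+/+ and of 9.16, 9.22 and 9.33 in Pogz-/-, and since its position relative to the deleted exons was not determined it checks nothing about the genotypes.

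Over 6 arrays, 0 of the 36 measured genes passed an adjusted p of 0.05 in limma (Benjamini-Hochberg over all genes), where 22 of all 18193 genes, or 0.121%, passed. At an unadjusted p under 0.05 there were 8 of 36, 4 in each group, or 22.2%, against 17.7% of all genes. The methods' t-test and limma without trend also called 0 of them. In the 5-array fit 5 of 36 were called, or 13.9%, against 4.48% of all genes. Aen and Bid were higher in Pogz-/- (2.41% of all genes were called higher), and Sesn1, Bcl2l1 and Bcl2l11 were lower (2.07% of all genes). Of these, Aen and Sesn1 made 2 of 25 p53 pathway genes, and the other genes made 3 of 11 in the BCL2 family. These 5 calls rest on leaving out 1 Pogz+/+ array and on the settings: limma without trend and robust called 0 of the 36 genes in the same arrays, as did the mean of a gene's probe sets. Quantile normalization lost the call of Bid. Median centring, which moved the median of all genes up, called 9 of the 36 genes, all higher and 0 lower, and lost the calls of Sesn1, Bcl2l1 and Bcl2l11 with their directions unchanged.

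**Figure D1:**
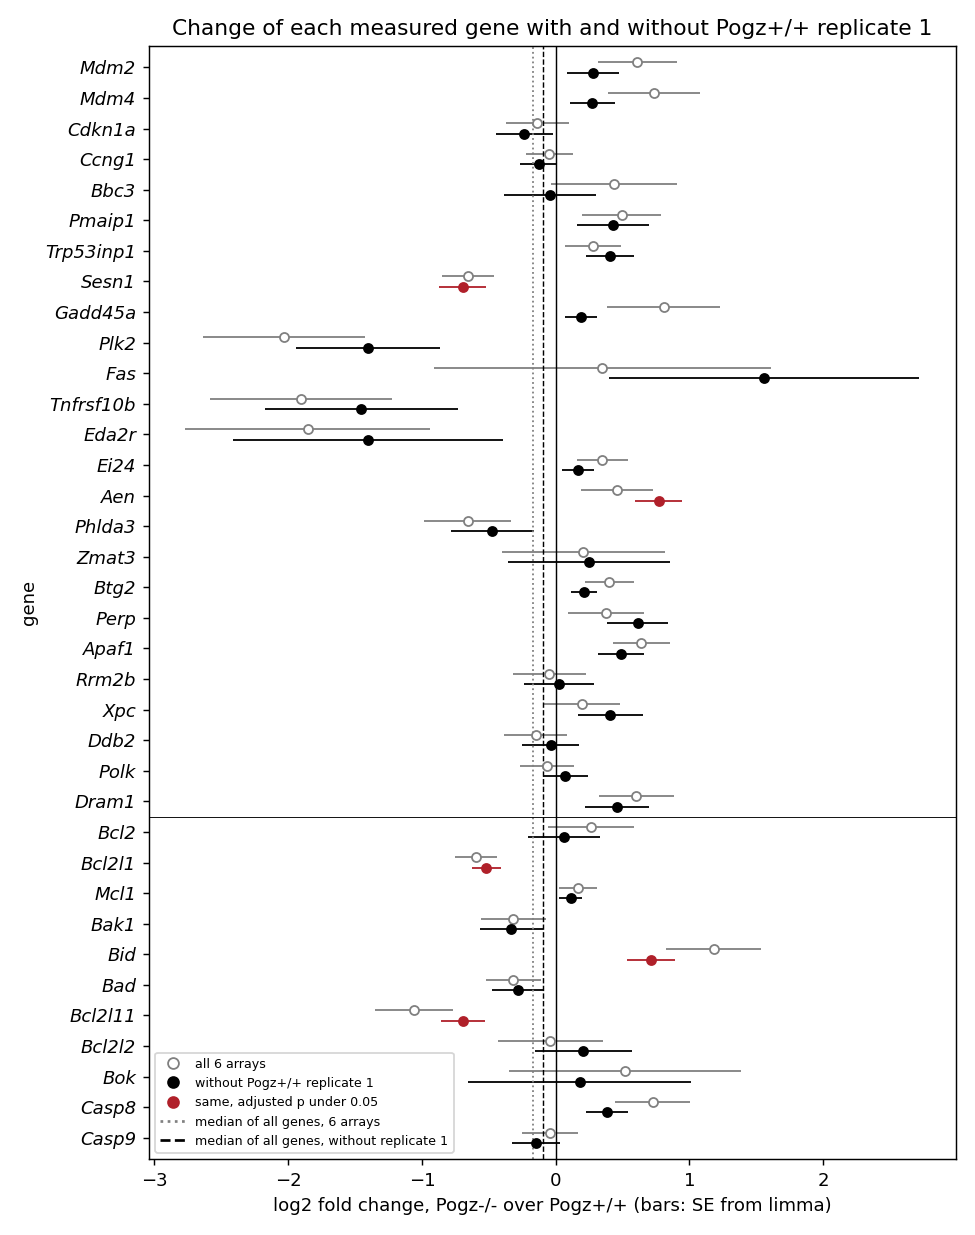
Log2 fold change of each measured gene, Pogz-/- over Pogz+/+, with SE bars from limma, over 6 arrays (open points) and without Pogz+/+ replicate 1 (filled points, red where the adjusted p is under 0.05). The red points are Sesn1, Aen, Bcl2l1, Bid and Bcl2l11, and the vertical lines mark the median of all genes, -0.17 over 6 arrays and -0.10 without Pogz+/+ replicate 1.

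To show which of these genes hold a p53 sequence close to their start, RefSeq promoter windows (GRCm38.p6, 250 bases before to 50 after each annotated start) were searched for the p53 decamer, the repeat unit of the p53 response element. The decamer consensus reads the same on both strands. A window was found for 30 of the 38 genes, 41 windows in all, and 11 of those 41 held the decamer, or 26.8%, against 8.36% of the 32851 windows of all genes. They belong to 10 genes, all on the p53 pathway list: Trp53, Mdm2, Cdkn1a, Ccng1, Bax, Sesn1, Gadd45a, Ei24, Aen and Polk. A pair of decamers at most 13 bases apart occurred in Cdkn1a, 1 of 41 windows, and in 0.0731% of all windows. Only exact matches were marked. The stretch tgacatgttc, directly after the Cdkn1a decamer nearer the start, departs from the consensus at its first base and was not counted. The marked pair is therefore not shown to be the response element of this gene. Shown here, 5′ to 3′ on the strand of the gene with the decamer in capitals, are the sites of Cdkn1a, the reference p53 target, and of Aen and Sesn1, the p53 targets called in the 5-array fit.
Cdkn1a, chr17:29090896-29090925 on the plus strand, 73 bases before the start: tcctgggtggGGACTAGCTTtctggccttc
Cdkn1a, chr17:29090918-29090947 on the plus strand, 51 bases before the start: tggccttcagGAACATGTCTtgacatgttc
Aen, chr7:78895927-78895956 on the plus strand, 10 bases after an annotated start: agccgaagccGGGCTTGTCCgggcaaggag
Sesn1, chr10:41887256-41887285 on the plus strand, 173 bases before an annotated start: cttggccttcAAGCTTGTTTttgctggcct

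The same windows were searched for AGATAA, a sequence bound by GATA factors, on either strand, since the BCL2 family includes genes active in erythroid cells. It was found in Bcl2l1 and Casp8, 2 of 41 windows or 4.88%, against 11.2% of all windows. Both genes are on the BCL2 family and caspase list, whereas the 41 windows also cover the p53 pathway genes. The share within either list was not counted. The Bcl2l1 site is shown because this gene, like Aen and Sesn1, was called in the 5-array fit, with AGATAA in capitals.
Bcl2l1, chr2:152828515-152828540 on the minus strand, 41 bases before the start: tgtgacccaaAGATAAagagagcaga
A match in such a window describes the letters only, and no binding was measured.

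The 2 inhibitors of p53 did not pass the test. Mdm2, the ubiquitin ligase that p53 itself induces, had log2 signals of 6.56, 7.28 and 7.82 in Pogz+/+ and of 7.68, 7.81 and 8.0 in Pogz-/-. The Pogz-/- arrays sat within or above the range of the Pogz+/+ arrays, and the lowest value was that of Pogz+/+ replicate 1. The log2 fold change of Mdm2, Pogz-/- over Pogz+/+, was 0.61 over 6 arrays (SE 0.29, adjusted p 0.306, limma) and 0.28 in the 5-array fit (SE 0.19, adjusted p 0.481). The other 2 probe sets of Mdm2 had negative log2 fold changes, -0.25 and -2.21 over 6 arrays and -0.03 and -3.05 in the 5-array fit, and neither passed. Mdm4, a relative that blocks the activation domain of p53, had log2 fold changes of 0.73 and 0.27 (adjusted p 0.297 and 0.426), with all Pogz-/- arrays above all Pogz+/+ arrays on its brightest probe set. Its other probe sets changed by 0.04, 0.06 and -0.32 over 6 arrays and by -0.03, 0.88 and -0.35 in the 5-array fit, and none passed.

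Among the targets for cell cycle arrest and growth, Cdkn1a, which encodes the cyclin-dependent kinase inhibitor p21, read 6.84, 7.13 and 7.14 in Pogz+/+ and 7.19, 6.83 and 6.67 in Pogz-/- on its brightest probe set. The groups overlapped, and the log2 fold change was -0.14 over 6 arrays (SE 0.24, adjusted p 0.789, limma) and -0.23 without Pogz+/+ replicate 1 (SE 0.22, adjusted p 0.609). The other probe set of Cdkn1a, dimmer and singled out after its values were seen, read 3.32, 3.66 and 3.49 in Pogz+/+ and 5.57, 5.67 and 5.78 in Pogz-/-, so its groups were far apart. Its log2 fold change was 2.18 over 6 arrays, with an adjusted p of 0.163 over all probe sets, and 2.10 in the 5-array fit (SE 0.45, adjusted p 0.0344, limma). The 2 probe sets of this gene thus gave different answers, and which transcripts each one reads was not tested. Ccng1, which encodes cyclin G1, differed by less than its spread, with log2 fold changes of -0.05 and -0.13.

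Sesn1 encodes sestrin 1, a stress protein that restrains mTORC1. Its log2 signals were 9.37, 9.19 and 9.79 in Pogz+/+ and 8.78, 8.98 and 8.62 in Pogz-/-, with every Pogz-/- array below every Pogz+/+ array. The mean was 9.45 ± 0.31 (SD, n = 3) in Pogz+/+ and 8.79 ± 0.18 (SD, n = 3) in Pogz-/-. Over 6 arrays the log2 fold change was -0.65 (SE 0.19, adjusted p 0.160, limma), and in the 5-array fit Sesn1 fell by a log2 difference of 0.69 (SE 0.17, adjusted p 0.0479), to 0.618 of its Pogz+/+ level. The other 3 probe sets of Sesn1 changed by -0.15, 0.25 and -0.18 on the log2 scale in the 5-array fit and none of them passed.

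The remaining genes of this role did not pass in either fit. Gadd45a, a growth arrest gene, read 7.85, 9.75 and 9.66 in Pogz+/+ and 10.07, 9.87 and 9.74 in Pogz-/-, so that Pogz+/+ replicate 1 alone set its log2 fold change of 0.81 over 6 arrays apart from 0.19 without that array. Btg2, an antiproliferative gene, had log2 fold changes of 0.40 and 0.21 (adjusted p 0.287 and 0.274), with all Pogz-/- arrays above. The other probe set of Btg2 had every Pogz-/- array below every Pogz+/+ array (9.05, 9.06 and 9.04 against 9.21, 9.23 and 9.28), with log2 fold changes of -0.19 and -0.21, so the gene had no single direction. Plk2, a polo-like kinase, read 7.40, 5.40 and 5.63 in Pogz+/+ and 3.87, 4.62 and 3.84 in Pogz-/-. These do not overlap, but the log2 fold changes of -2.03 and -1.40 had adjusted p values of 0.163 and 0.191, and the other probe set of Plk2 changed by 1.24 in the opposite direction in the 5-array fit. Trp53inp1, a stress-induced partner of p53, had log2 fold changes of 0.28 and 0.41, and Zmat3, an RNA-binding protein, of 0.21 and 0.25.

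Bbc3 and Pmaip1 encode PUMA and NOXA, the BH3-only proteins by which p53 reaches the mitochondrial pathway, and are BCL2 proteins as well. Bbc3 read 4.99, 6.64 and 6.22 in Pogz+/+ and 6.93, 5.71 and 6.52 in Pogz-/-. The groups overlapped throughout, with a log2 fold change of 0.44 over 6 arrays (SE 0.47, adjusted p 0.646, limma) and -0.04 in the 5-array fit (SE 0.34, adjusted p 0.968). Pmaip1 read 5.81, 6.06 and 5.95 in Pogz+/+ and 6.13, 6.70 and 6.47 in Pogz-/-, with no overlap, at log2 fold changes of 0.49 and 0.43 (adjusted p 0.400 and 0.435).

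All 3 death receptor genes of the set were dim: Fas, Tnfrsf10b (a receptor for TRAIL) and Eda2r had a mean log2 signal below 4.91, the median of all probe sets. Fas ranged from 0.41 to 4.98 within Pogz+/+ alone. Tnfrsf10b read 6.28, 4.77 and 5.09 in Pogz+/+ and 4.02, 2.91 and 3.51 in Pogz-/-, and its log2 fold changes were -1.90 and -1.45 (adjusted p 0.208 and 0.314). Eda2r, with log2 fold changes of -1.86 and -1.40 (adjusted p 0.313 and 0.505), likewise had no overlap, and neither gene passed the test.

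Aen encodes a nuclease that p53 induces and that cuts DNA in apoptosis. Its log2 signals were 7.96, 6.88 and 7.20 in Pogz+/+ and 7.91, 7.79 and 7.73 in Pogz-/-. Only Pogz+/+ replicate 1 reached the Pogz-/- level, and the other 2 Pogz+/+ arrays lay below all Pogz-/- arrays. The log2 fold change was 0.46 over 6 arrays (SE 0.27, adjusted p 0.385, limma), and Aen rose by 0.77 in the 5-array fit (SE 0.18, adjusted p 0.0319), a 1.70-fold rise from 7.04 ± 0.22 (SD, n = 2) to 7.81 ± 0.09 (SD, n = 3). The other 3 probe sets of Aen changed by 0.13, 0.36 and 0.66 in that fit and did not pass.

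The other apoptosis targets were not called. Apaf1, the scaffold of the apoptosome that activates caspase 9, read 7.44, 7.74 and 8.06 in Pogz+/+ and 8.18, 8.37 and 8.61 in Pogz-/-. Every Pogz-/- array was higher, and the log2 fold changes were 0.64 (SE 0.21, adjusted p 0.187, limma) and 0.49 (SE 0.17, adjusted p 0.149). The other probe set of Apaf1 changed by 0.91 over 6 arrays and by -0.25 in the 5-array fit and did not pass. Dram1, a lysosomal protein of autophagy, had log2 fold changes of 0.60 and 0.46, and Ei24, an endoplasmic reticulum protein, of 0.35 and 0.16, both without overlap. Perp, a membrane protein, had 0.37 and 0.61, and Phlda3, an inhibitor of AKT, -0.66 and -0.47, both overlapping over 6 arrays. Of the 4 genes for DNA repair and nucleotide supply, Rrm2b, Xpc, Ddb2 and Polk, none was called, and their log2 fold changes lay between -0.15 and 0.20 over 6 arrays and between -0.04 and 0.41 in the 5-array fit.

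**Figure D2:**
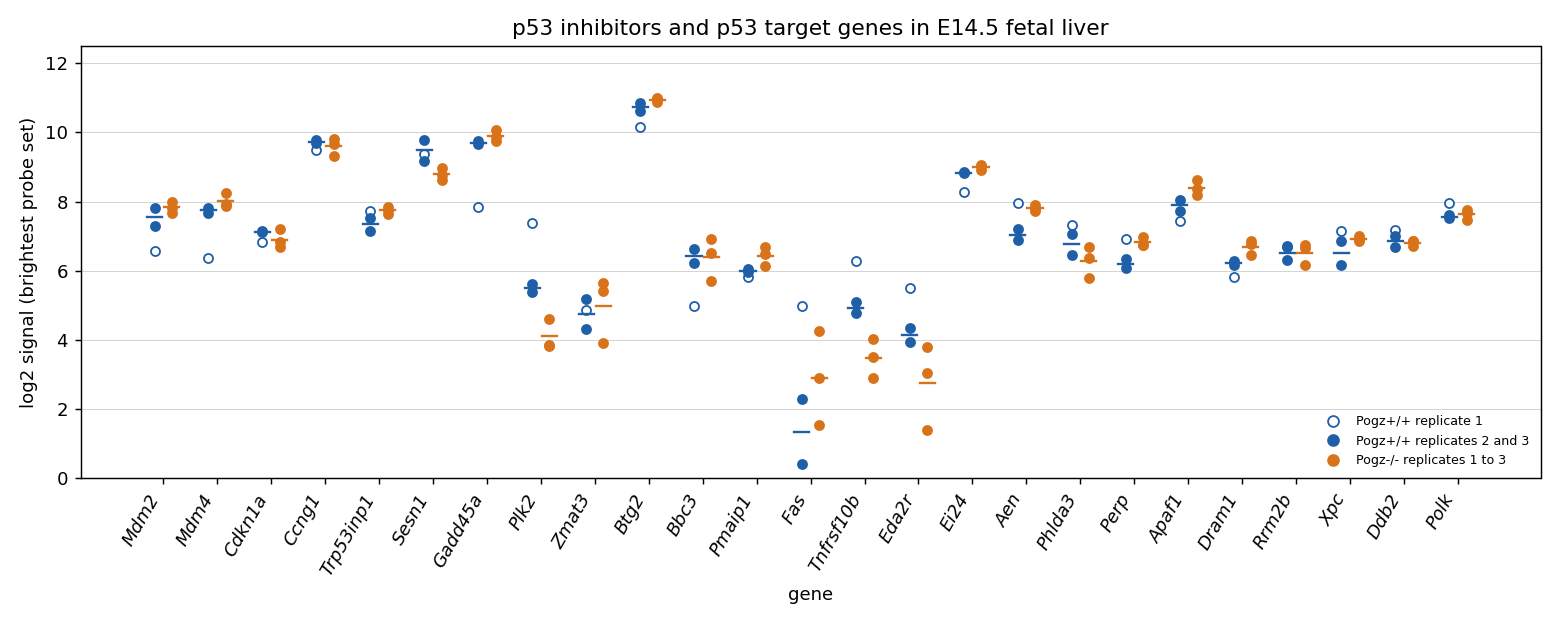
Log2 signal of the brightest probe set of each measured p53 pathway gene in each array (open circles, Pogz+/+ replicate 1, filled blue, Pogz+/+ replicates 2 and 3, orange, Pogz-/-). Gadd45a and Mdm4 show Pogz+/+ replicate 1 well below the other arrays, Sesn1 shows Pogz-/- below Pogz+/+, and Aen shows Pogz-/- above Pogz+/+ replicates 2 and 3.

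Of the antiapoptotic BCL2 genes, Bcl2l1, which encodes BCL-XL, was lower in Pogz-/-. It read 10.61, 10.42 and 10.34 in Pogz+/+ and 9.72, 10.00 and 9.86 in Pogz-/-, with a gap between the groups in all arrays. The mean was 10.46 ± 0.14 (SD, n = 3) in Pogz+/+ and 9.86 ± 0.14 (SD, n = 3) in Pogz-/-. The log2 fold change over 6 arrays was -0.59 (SE 0.15, adjusted p 0.130, limma), and in the 5-array fit Bcl2l1 fell by 0.52 (SE 0.11, adjusted p 0.0225), to 0.698 of the Pogz+/+ level. The other 3 probe sets of Bcl2l1 changed by -0.49, 0.71 and -1.35 in that fit and did not pass.

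Bcl2 itself read 5.58, 6.12 and 6.24 in Pogz+/+ and 6.02, 6.53 and 6.19 in Pogz-/-. These groups overlapped, with log2 fold changes of 0.27 (SE 0.32, adjusted p 0.691, limma) and 0.06 (SE 0.27, adjusted p 0.936). The dimmer probe sets of Bcl2 changed by -1.34, -1.08, 0.35 and -0.15 over 6 arrays. In the 5-array fit they changed by -0.90, -0.73, -0.30 and 1.04, and none passed. The first of them had every Pogz-/- array below every Pogz+/+ array. Mcl1 read 11.02, 11.18 and 11.21 in Pogz+/+ and 11.23, 11.38 and 11.30 in Pogz-/-. On this brightest probe set the Pogz-/- arrays were all above, by little. The log2 fold change was 0.17 (SE 0.14, adjusted p 0.543, limma) over 6 arrays and 0.11 (SE 0.09, adjusted p 0.541) in the 5-array fit. The next brightest probe sets of Mcl1 had every Pogz-/- array below every Pogz+/+ array. Their log2 fold changes were -0.32, -0.52 and -0.60 over 6 arrays and -0.23, -0.38 and -0.40 in the 5-array fit. The dimmer ones changed by 0.51 and 0.06 over 6 arrays and by 0.21 and -0.07 in the 5-array fit. None of them passed. Of the 6 probe sets of Mcl1, 2 were higher and 4 lower in the 5-array fit, so the gene had no single direction. Bcl2l2, which encodes BCL-W, had log2 fold changes of -0.04 and 0.21.

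Among the effectors, Bak1 read 7.77, 7.99 and 7.65 in Pogz+/+ and 7.97, 7.24 and 7.24 in Pogz-/-, with log2 fold changes of -0.32 and -0.33 (adjusted p 0.504 and 0.494). Its groups overlapped. Bok, a less studied effector and a dim probe set, ranged from 3.00 to 5.99 within Pogz+/+ and was not called.

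The BH3-only genes moved in both directions. Bid, whose protein is cut by caspase 8 and carries the death receptor signal to mitochondria, read 6.32, 7.82 and 7.64 in Pogz+/+ and 8.72, 8.14 and 8.46 in Pogz-/-. The groups did not overlap, and Pogz+/+ replicate 1 was far below the rest. The log2 fold change was 1.18 over 6 arrays (SE 0.35, adjusted p 0.165, limma), and Bid rose by 0.71 in the 5-array fit (SE 0.18, adjusted p 0.0477), 1.64-fold, from 7.73 ± 0.13 (SD, n = 2) to 8.44 ± 0.29 (SD, n = 3). The other 2 probe sets of Bid changed by 0.31 and 0.14 in that fit and did not pass.

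Bcl2l11 encodes BIM, a BH3-only protein that binds all antiapoptotic members. It read 10.40, 9.17 and 9.42 in Pogz+/+ and 8.36, 8.88 and 8.58 in Pogz-/-. Every Pogz-/- array was lower, and Pogz+/+ replicate 1 was the highest of all. The log2 fold change was -1.06 over 6 arrays (SE 0.29, adjusted p 0.143, limma), and Bcl2l11 fell by 0.69 in the 5-array fit (SE 0.16, adjusted p 0.0342), to 0.618 of the Pogz+/+ level. The other 4 probe sets of Bcl2l11 changed by -0.008, -0.012, 0.75 and -2.38 in that fit and did not pass. Bad, a BH3-only protein controlled by growth factor signalling, had log2 fold changes of -0.32 and -0.28 and was not called. The other probe set of Bad changed by 0.37 over 6 arrays and by 0.56 in the 5-array fit, the opposite direction, and did not pass.

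Casp8, the initiator caspase of death receptors, read 6.94, 7.98 and 7.97 in Pogz+/+ and 8.12, 8.50 and 8.45 in Pogz-/-. All Pogz-/- arrays were higher, but the log2 fold changes of 0.73 (SE 0.28, adjusted p 0.232, limma) and 0.38 (SE 0.16, adjusted p 0.226) did not pass. Casp9, the initiator caspase of the apoptosome, read 7.16, 7.59 and 7.36 in Pogz+/+ and 7.38, 7.38 and 7.21 in Pogz-/-. Its groups overlapped, with log2 fold changes of -0.04 (SE 0.21, adjusted p 0.932, limma) and -0.15 (SE 0.18, adjusted p 0.715). The other probe sets of Casp9 were dimmer, with mean log2 signals of 4.75 and 2.62, and had every Pogz-/- array below every Pogz+/+ array. They changed by -0.83 and -0.635 over 6 arrays and by -0.74 and -0.40 in the 5-array fit, and neither passed.

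**Figure D3:**
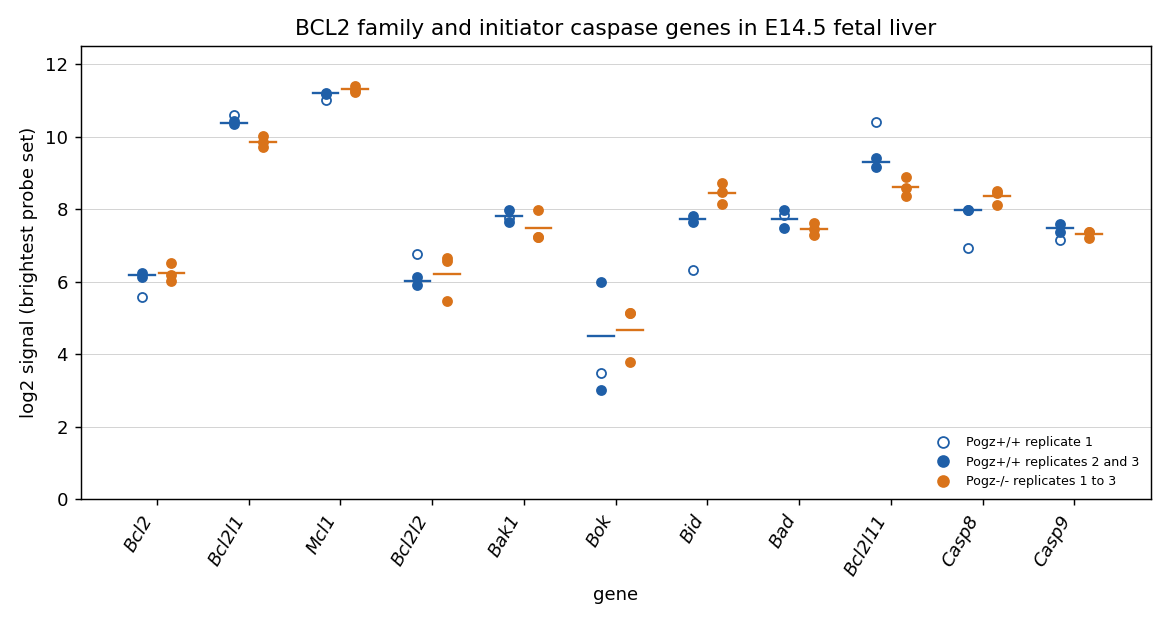
Log2 signal of the brightest probe set of each BCL2 family and initiator caspase gene in each array (open circles, Pogz+/+ replicate 1, filled blue, Pogz+/+ replicates 2 and 3, orange, Pogz-/-). Bcl2l1 and Bcl2l11 have every Pogz-/- array below every Pogz+/+ array, and Bid and Casp8 have every Pogz-/- array above.

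Over 6 arrays, 9 of the 36 genes, or 25.0%, had on their brightest probe sets all Pogz-/- arrays above all Pogz+/+ arrays, where 10.8% of all genes did, and 6, or 16.7%, had them below, where 16.3% of all genes did. Those above were Mdm4, Pmaip1, Ei24, Btg2, Apaf1, Dram1, Mcl1, Bid and Casp8, and those below were Sesn1, Plk2, Tnfrsf10b, Eda2r, Bcl2l1 and Bcl2l11. The median log2 fold change of the p53 pathway genes was 0.28 over 6 arrays and 0.19 in the 5-array fit, where the median of all genes was -0.17 and -0.10. That of the BCL2 family and caspases was -0.04 and 0.06, and its sign over 6 arrays turned with scaling, to 0.11 after quantile normalization and 0.42 after median centring. Median centring moved the median of all genes from -0.17 to 0.29 and that of the p53 pathway genes to 0.74, so that the p53 median stayed above the median of all genes under both scalings. Of all 18193 genes 7281 were dim, against 5 of these 36, so the background is the dimmer one. With dim probe sets filtered out over 6 arrays, the medians were -0.03 for all genes, 0.35 for the p53 pathway and -0.04 for the BCL2 family and caspases. The shares without overlap, and those called in the 5-array fit, were not recomputed without dim genes.

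The 36 genes were covered by 85 probe sets, and the choice of the brightest one mattered. Of the 23 genes with several probe sets, 5 had all of them changed in 1 direction in the 5-array fit and 18 had them in both directions. With the test run over all probe sets, the brightest ones of Aen (adjusted p 0.0470) and Bcl2l1 (adjusted p 0.0349) kept their calls in limma, and those of Sesn1 (adjusted p 0.0705), Bid (adjusted p 0.0694) and Bcl2l11 (adjusted p 0.0517) lost them.

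**Figure D4:**
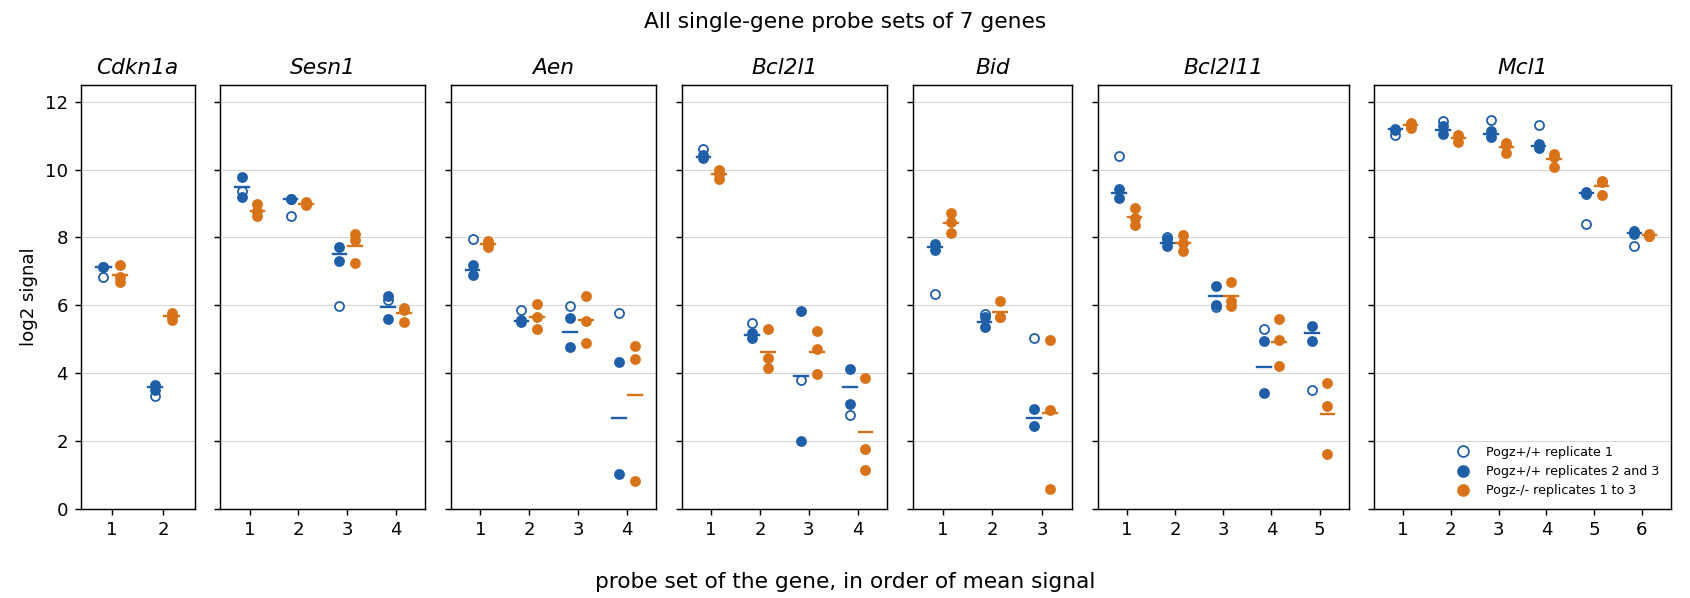
Log2 signal of every single-gene probe set of 7 genes in each array, ordered by mean signal, with the brightest first (open circles, Pogz+/+ replicate 1, filled blue, Pogz+/+ replicates 2 and 3, orange, Pogz-/-). The second probe set of Cdkn1a separates the genotypes, 3.32 to 3.66 against 5.57 to 5.78, whereas the first does not.

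Further genes of the pathway, on lists put together by function, had 0 calls in limma over 6 arrays, while 22 of all genes (0.121%) had one. At an unadjusted p under 0.05 lay 17.7% of all genes. So did 38.1% of the regulators of p53 (8) and 3.03% of the further p53 targets (1). On the further BCL2 family list it was 18.2% (2), and among the execution genes 30.0% (6). The calls that follow come from the 5-array fit, and limma without trend and robust called 0 of all genes in the same arrays. Among 21 measured regulators of p53, 4 were called, or 19.0%, against 4.48% of all genes. Crebbp, the acetyltransferase CBP, rose by 0.69 (SE 0.12, adjusted p 0.00764, limma), and Rchy1, a ubiquitin ligase for p53, rose by 0.63 (SE 0.14, adjusted p 0.0235). Trp53bp1, which encodes a p53-binding protein that gathers at DNA breaks, fell by 0.73 (SE 0.11, adjusted p 0.00458), and Ppm1d, the phosphatase WIP1 that switches the p53 response off, fell by 0.50 (SE 0.12, adjusted p 0.0417). Over 6 arrays the log2 fold changes were 0.95 for Crebbp, 0.96 for Rchy1, -1.12 for Trp53bp1 and -0.53 for Ppm1d, with adjusted p of 0.111, 0.144, 0.120 and 0.155. The called regulators thus lay on both sides, and the median log2 fold change of the list was -0.06 in the 5-array fit.

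Of 33 measured further p53 targets, 1 was called, or 3.03%, below the 4.48% of all genes: Cyfip2, part of the WAVE complex, rose by 0.74 (SE 0.16, adjusted p 0.0251, limma), with an adjusted p of 0.121 over 6 arrays at the same size. The median of this list, 0.01 in the 5-array fit and 0.05 over 6 arrays, lay closer to the median of all genes than that of the 25 p53 pathway genes above. Of 11 measured genes on the further BCL2 family list, 0 were called in limma. At an unadjusted p under 0.05 in the 5-array fit were 3 (27.3%), where 18.3% of all genes lay. This list also holds Vdac2 and Bag1, which do not encode BCL2 proteins themselves. Of 20 measured genes for the execution of apoptosis, 1 was called, or 5.0%, near the 4.48% of all genes: Cycs, cytochrome c, which is released from mitochondria to start the apoptosome, fell by 0.43 (SE 0.07, adjusted p 0.00812). Its log2 fold change over 6 arrays was -0.52 (adjusted p 0.145, limma).

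Markers of the cell types of FL moved with genotype beside these genes. On the log2 scale, 10 measured erythroid markers together summed to a signal of 16.25 to 16.62 in Pogz+/+, above the 15.82 to 15.90 of Pogz-/-. In the 5-array fit 10 of 10 had a negative log2 fold change, as did 57.6% of all genes, and 4 were called lower (Slc4a1, Alas2, Klf1 and Tfrc), or 40.0%, against 2.07% of all genes. Bcl2l1 and Bcl2l11 were lower in the same arrays as the erythroid markers, and the part of the erythroid share in either change was not tested. For 7 progenitor markers the Pogz+/+ sums of 11.07 to 11.46 lay below the Pogz-/- sums of 11.71 to 11.87, but the list was split: Kit and Myb were called higher in the 5-array fit (0.91 and 0.45), Flt3 had a positive and Cd34, Gata2, Meis1 and Hlf had negative log2 fold changes, with a median of -0.19. Of 10 granulocyte markers, 9 had a positive log2 fold change in the 5-array fit and 4 were called higher, or 40.0%, against 2.41% of all genes: Camp (1.09, and called over 6 arrays with an adjusted p of 0.029 in limma), Ltf, Lcn2 and Ctsg. The granulocyte sum, which includes S100a8 and S100a9, overlapped (15.59 to 16.38 against 15.61 to 15.81). Bid was higher in Pogz-/- as well. The part of progenitors or of granulocytes in the change of Bid was not tested. Each sum adds linear signals before the log2 is taken, so its brightest genes weigh most. In Pogz+/+ replicate 2, Afp read 14.63 beside a hepatoblast sum of 15.03, and Csf1r read 11.44 beside a macrophage sum of 12.22. Sums of macrophage markers (12.20 to 12.48 against 11.72 to 12.14) and hepatoblast markers (14.73 to 15.62 against 14.02 to 14.67) also had no overlap. The same held for B cell markers (8.58 to 9.30 against 7.85 to 8.38) and T and natural killer cell markers (8.98 to 9.98 against 8.67 to 8.71). All these sums were lower in Pogz-/-. Within these lists the members differed: macrophage markers had 4 positive and 6 negative log2 fold changes in the 5-array fit and 0 calls in limma (4 at an unadjusted p under 0.05), Nkg7 was called higher and Zap70 lower among T and natural killer cell markers (1.17 and -1.0), and Afp was called lower while Alb had a log2 fold change of 0.41 among hepatoblast markers. Endothelial and stromal markers were lower as well (9.42 to 9.77 against 9.02 to 9.25), whereas the megakaryocyte sums (12.13 to 12.25 against 11.89 to 12.19) overlapped. The 3′/5′ ratios of actin and Gapdh were lower in all Pogz-/- arrays than in all Pogz+/+ arrays, also without Pogz+/+ replicate 1, and their part in the changes was not tested.

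**Figure D5:**
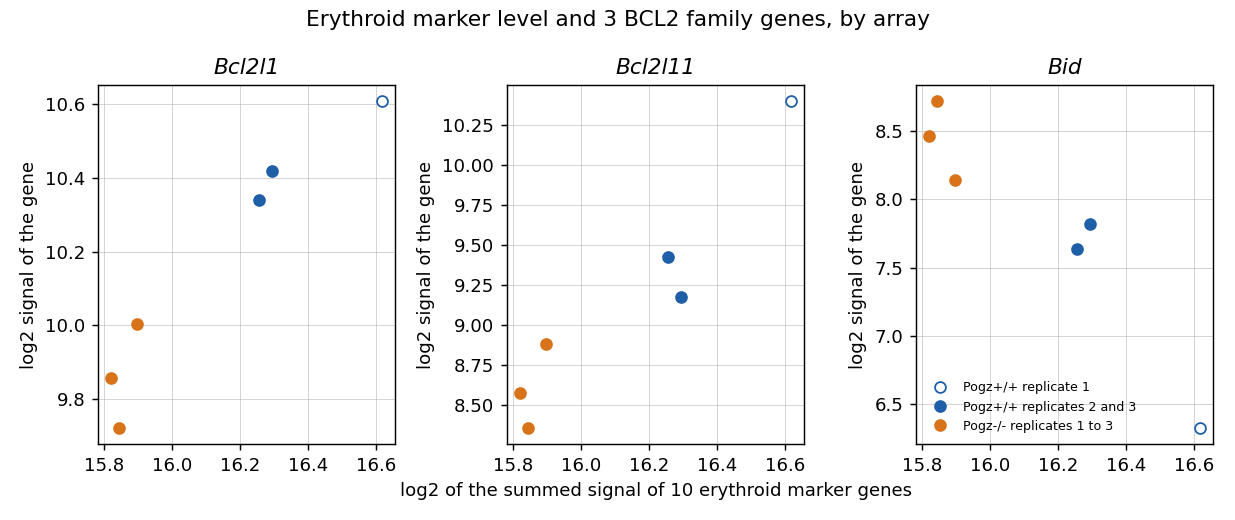
Log2 signal of 3 BCL2 family genes against the log2 of the summed signal of 10 erythroid markers, 1 point per array (open circle, Pogz+/+ replicate 1, filled blue, Pogz+/+ replicates 2 and 3, orange, Pogz-/-). The Pogz-/- arrays sit at 15.82 to 15.90 on the marker axis and the Pogz+/+ arrays at 16.25 to 16.62, so genotype and marker level separate the arrays alike.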

How the data were processed

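RNA of FL cells (about 100 ng per sample, 3′ IVT labelling) was measured on Affymetrix mouse genome arrays, 3 per genotype, labelled as biological replicates. The number of arrays limits the precision. The intensity values deposited by the authors are linear, came from Affymetrix Expression Console (version and summarisation method: not given in the sources read), and have the same 2% trimmed mean, 150, in each array. Since array medians run from 29.7 to 54.3, the arrays were not quantile normalized.

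Log2 was taken without a pseudocount. After 64 controls were left out, 45037 probe sets remained. Of these 34945 name 1 gene, 932 several and 9160 none in the probe annotation used, and each of the 18193 genes is represented by the single-gene probe set that is brightest by mean log2 signal. Trp53 and Bax have no named probe set. limma 3.58.1 in R 4.3.3 (lmFit, eBayes with trend and robust, genotype only, two-sided, Benjamini-Hochberg over all genes, adjusted p under 0.05) was fitted to 6 arrays and again without Pogz+/+ replicate 1, which leaves 2 Pogz+/+ arrays. The code was tested on simulated data. The genes, lists, fits and alternatives were chosen with earlier results of these data known. Every array value is given for Trp53, Mdm2, Cdkn1a, Bax, Bbc3, Bcl2, Bcl2l1, Mcl1, Casp8 and Casp9, where measured. It is also given for each p53 pathway, BCL2 family or caspase gene of the main lists that was called in either fit. From each further list, up to 4 called genes are named, and others were named after their values were seen. Alternatives were quantile normalization, median centring, log2(value + 16), a filter on dim probe sets, limma without trend and robust, a replicate block, each array left out, a covariate of 3 Y-linked genes, the methods' t-test, a 1.5-fold minimum, the mean of a gene's probe sets and every probe set. Promoter sequences are from RefSeq (GRCm38.p6).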

Additional observations from a re-analysis of the deposited data

How the results depend on the processing

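Over 6 arrays, 0 p53 pathway genes and 0 BCL2 family and caspase genes were called under every alternative that kept all arrays. Without Pogz+/+ replicate 1 the p53 pathway had 2 calls (2 with quantile normalization, 6 with median centring, all higher) and the BCL2 family and caspases 3 (2 with quantile normalization, 3 with median centring, all higher, 0 in limma without trend and robust). Leaving out each array in turn gave 0 to 2 and 0 to 3. Over all genes the 22 calls became 0 in limma without trend and robust, 9 with quantile normalization, 4 with median centring, 5 with the mean of a gene's probe sets, 0 with the Y-linked covariate, 1 in the methods' t-test, 65 with the replicate block and 0 to 815 with 1 array left out, while 15 to 22 were called with log2(value + 16), the filter, a 1.5-fold minimum or every probe set. Without Pogz+/+ replicate 1, all genes had 679 calls with quantile normalization, 1944 with median centring (1844 higher, 100 lower, against 439 and 376) and 0 in limma without trend and robust. Deviations of same-numbered arrays from their group means correlated at 0.00784, -0.00444 and -0.00503 over all probe sets, dim ones included. Whether equal replicate numbers share a litter or batch was not tested. The replicate block called 0 of the 36 genes.

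The 5 calls without Pogz+/+ replicate 1 became 0 in limma without trend and robust, 4 with quantile normalization (Bid lost, adjusted p 0.0709), 9 with median centring (Sesn1, Bcl2l1 and Bcl2l11 lost, adjusted p 0.166, 0.225 and 0.126), 3 with log2(value + 16), 0 with the mean of a gene's probe sets, 3 with the Y-linked covariate and 0 to 3 with 1 more array left out (1 without Pogz+/+ replicate 2, 0 without Pogz+/+ replicate 3, and 1, 3 and 0 without Pogz-/- replicates 1, 2 and 3). Of 55 alternative values for these genes, 17 stayed past the threshold, 38 did not and 0 changed sign. Adjusted p ranged from 0.0126 to 0.546 for Sesn1, 0.00387 to 0.691 for Aen, 0.0225 to 0.657 for Bcl2l1, 0.0054 to 0.709 for Bid and 0.0299 to 0.531 for Bcl2l11. With the Y-linked covariate 0 calls were higher and 3 lower, so Aen and Bid were no longer called. Xist, which is high in females, read 7.10, 4.81 and 12.91 in Pogz+/+ and 12.81, 12.92 and 6.85 in Pogz-/-, so both genotypes held embryos of both sexes. Fewer arrays entered only the fits with 1 more array left out, and the cause of the lost calls was not tested.

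Of 679 alternative log2 fold changes of the 36 genes, 604 kept direction and side of the threshold, 18 passed it and 57 changed sign, 0 of the latter called, and 18 genes never changed sign. Median centring moved the median of all genes from -0.17 to 0.29 (from -0.10 to 0.18 without Pogz+/+ replicate 1), so the sign changes under it follow from that shift of all genes. Changed signs were, with the mean of a gene's probe sets, Mdm2 -0.62, Cdkn1a 1.02, Ccng1 0.39, Trp53inp1 -0.17, Ddb2 0.49, Polk 0.42, Bcl2 -0.39, Mcl1 -0.12 and Bad 0.0295. With median centring they were Cdkn1a 0.32, Ccng1 0.41, Rrm2b 0.41, Ddb2 0.31, Polk 0.39, Bak1 0.14, Bad 0.14, Bcl2l2 0.42 and Casp9 0.42, and with median centring without Pogz+/+ replicate 1 Cdkn1a 0.0367, Ccng1 0.14, Rrm2b 0.30, Ddb2 0.23, Polk 0.34, Bcl2l2 0.48 and Casp9 0.12. With quantile normalization they were Rrm2b 0.0755 and Bcl2l2 0.11, and with it without Pogz+/+ replicate 1 Rrm2b 0.0688, Polk 0.0211 and Bcl2l2 0.31. With the Y-linked covariate they were Fas -0.12, Rrm2b 0.12 and Bcl2l2 0.22, and with log2(value + 16) Fas -0.0435. Without Pogz+/+ replicate 1, with or without trend and robust, they were Bbc3 -0.0435, Rrm2b 0.025, Polk 0.0721 and Bcl2l2 0.21. With each array left out in turn, the log2 fold changes that crossed 0 ran from -0.15 to 0.0883 for Ccng1, -0.0435 to 0.78 for Bbc3, -0.73 to 1.56 for Fas, -0.11 to 0.75 for Zmat3, -0.17 to 0.13 for Rrm2b, -0.0835 to 0.41 for Xpc, -0.16 to 0.0721 for Polk, -0.25 to 0.34 for Bcl2l2, -0.0563 to 1.44 for Bok and -0.15 to 0.0649 for Casp9. All of these genes were uncalled.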
